A study of Danio rerio with 2 samples.

Results

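Among the endothelial cells of the zebrafish tail at 48 h post fertilisation, 225 of 1878 carried little of the transcripts that mark the caudal venous plexus and the arteries or sprouts. They were picked by a rule on measured counts. A cell was called endothelial when cdh5, tie1, egfl7 and clec14a together reached 10 UMIs (unique molecular identifiers, 1 per captured RNA molecule) per 10,000 of its total and when myb, runx1 and gata2b together stayed below 3 UMIs. Of these, a cell was marker-low when stab2, aqp8a.1, esm1 and the sum of tnnt3a and crygn2 were each below 10 per 10,000 and hoxa13a, hoxc13a and hoxc13b together were below 2 UMIs. In the plots these cells are named low in both. Their given markers were dock9b, pcdh17, rnf220a, myca and tm4sf18.

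There were 2 single-cell libraries, 1 for each sorted population. Both came from resected tails of strain AB embryos carrying TgBAC(isl1:TagRFP), a red reporter under the regulatory region of the transcription factor gene isl1, and Tg(dab2:EGFP), a green reporter under dab2, an endocytic adaptor of venous and lymphatic endothelium. One library was labelled isl1-derived (TagRFP+/EGFP+ cells) and the other was labelled other (TagRFP-/EGFP+ cells), and no treatment was given. The number of embryos behind each library is not given in the sources used here, so every interval below is an exact 95% interval that covers counting error alone, and no difference has a replicate check. The sort transcripts ran against the labels. Among the marker-low cells TagRFP had 2 UMIs in 1 of 176 cells of the library labelled isl1-derived, against 34 UMIs in 7 of 49 cells of the library labelled other. Isl1 had 7 UMIs in 1 marker-low cell of the library labelled isl1-derived, with 31 UMIs in 1 cell of the one labelled other. Of the remaining endothelial cells 3.28% held a TagRFP UMI and 0.620% an isl1 UMI under the isl1-derived label, with 9.16% and 6.11% under the other label. The names under which the matrices were deposited also pair the reporters with the libraries the opposite way to the labels. The libraries are therefore named by their labels throughout, and no direction is drawn from the sort.

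Endothelial cells of the zebrafish tail at this stage line the caudal artery, the caudal vein and its plexus, and the intersegmental vessels that sprout from them. Venous plexus endothelium takes up circulating material through scavenger receptors such as stab2, stab1 and mrc1a and serves as a niche for blood stem cells, while arterial and sprouting cells use Notch and VEGF signalling. Endothelium that divides is usually found in growing vessels, and the transcription factor Myc is known to raise ribosome production and growth in such cells.

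The 225 marker-low cells were 176 of 1305 endothelial cells in the library labelled isl1-derived (13.5%, 95% Clopper-Pearson interval 11.7 to 15.5) and 49 of 573 in the library labelled other (8.55%, 6.39 to 11.1). All kept cells numbered 2739, and the 2 libraries shared 0 cell barcodes. The remaining endothelial cells were divided by the same thresholds. The stab2 side (stab2 at or above the threshold, aqp8a.1 and esm1 below it) held 383 cells in the library labelled isl1-derived, with 313 in the one labelled other. The aqp8a.1 or esm1 side held 648 and 126 cells, cells over the threshold on both sides numbered 87 and 79, and 11 and 6 cells were out by the tnnt3a, crygn2 or Hox13 limits alone. The stab2 side was thus 29.3% of endothelial cells in the library labelled isl1-derived, with 54.6% in the one labelled other, which sets what the remaining cells are in each.

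Depth was similar. The marker-low cells had a median of 7966 UMIs in the library labelled isl1-derived, with 5846 in the one labelled other, against 7690 and 6462 in the remaining endothelial cells. Summed over cells they held 1601057 and 284909 UMIs, so the library labelled other is the less precise of the 2. Near the threshold the rule divides a continuum. Among the marker-low cells, 48 under the isl1-derived label and 14 under the other label had 5 to 10 stab2 UMIs per 10,000, and 49 and 21 endothelial cells of these libraries that met the remaining limits had 10 to 15. For aqp8a.1 the same numbers were 18 and 8 inside, and 14 and 3 outside. For the summed endothelial genes of the rule, 25 and 9 marker-low cells of these libraries were below 15 per 10,000. Outside, 38 and 16 cells within the myb, runx1 and gata2b limit had 5 to 10, whatever their other markers.

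Endothelial genes of the rule were present by construction. Of these, egfl7, a secreted endothelial matrix protein, was at 1387 CPM (UMIs of the gene per 1000000 summed UMIs) in the marker-low cells and 1100 CPM in the remaining endothelial cells of the library labelled isl1-derived, with 1313 and 991 CPM in the one labelled other. VE-cadherin (cdh5), the endothelial adherens junction protein, had 858 CPM against 1475 CPM in the library labelled isl1-derived, with 1148 CPM against 1511 CPM in the one labelled other. Tie1 and clec14a were lower too, at ratios of 0.807 and 0.823 under the isl1-derived label and 0.763 and 0.711 under the other label. Of the other pan-endothelial genes, 27 of 33 were measured, meaning at least 100 UMIs over the marker-low and remaining cells in each library. Of these, 1 was at least 1.5-fold higher and 2 at least 1.5-fold lower in both libraries. These figures stand beside 3.39% of all 5008 measured genes higher and 7.75% lower. The higher one was s1pr1, a sphingosine-1-phosphate receptor that restrains sprouting, and the lower ones were calcrla, a receptor for adrenomedullin, and ldb2a, a LIM-domain cofactor. Etv2, a factor that specifies endothelium, had 465 CPM in marker-low cells against 581 CPM in the remaining cells under the isl1-derived label, and 453 CPM against 551 CPM under the other label. The summed pan-endothelial level was 10211 CPM in marker-low cells against 11699 CPM in the remaining cells under the isl1-derived label, and 10891 CPM against 10943 CPM under the other label.

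Low in the chosen markers did not mean empty of arterial and venous transcripts. Over lists of arterial and venous genes that the rule did not use, 131 of 176 marker-low cells in the library labelled isl1-derived (74.4%, 67.3 to 80.7) held at least 10 UMIs per 10,000 of both lists, against 934 of 1129 remaining cells (82.7%, 80.4 to 84.9). In the library labelled other these were 41 of 49 (83.7%, 70.3 to 92.7) and 411 of 524 (78.4%, 74.7 to 81.9). The venous list alone passed in 41 marker-low cells (23.3%) under the isl1-derived label and in 8 (16.3%) under the other label, and the arterial list alone in 4 and 0. Neither passed in 0 of 176 and 0 of 49 cells, which allows shares of up to 2.07% under the isl1-derived label and 7.25% under the other label. Among the remaining cells under the isl1-derived label neither passed in 0 of 1129. The venous list had medians of 95.7 and 106 per 10,000 in marker-low cells of the 2 libraries, far above the limit of 10. A count of 0 was thus nearly set by the limit and was not particular to the marker-low cells. Without aqp1a.1 and dab2 (whose promoter drove the sorted reporter), both lists passed in 119 (67.6%) and 35 (71.4%) marker-low cells, and neither passed in 1 and 0. Blood-lineage cells of the same libraries, which should lack both programmes, passed both full lists in 13.7% and 17.0%. The genes of the rule are low by construction, and on the wider lists most marker-low cells carried both kinds of transcript. So did most cells of the 2 large groups. Both full lists passed in 98.5% and 100% of the aqp8a.1 or esm1 side in the libraries labelled isl1-derived and other. On the stab2 side they passed in 53.0% and 66.1%. Carrying both kinds was thus not particular to the marker-low cells. The scatter of list levels per cell shows how the cells spread.

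**Figure D1:**
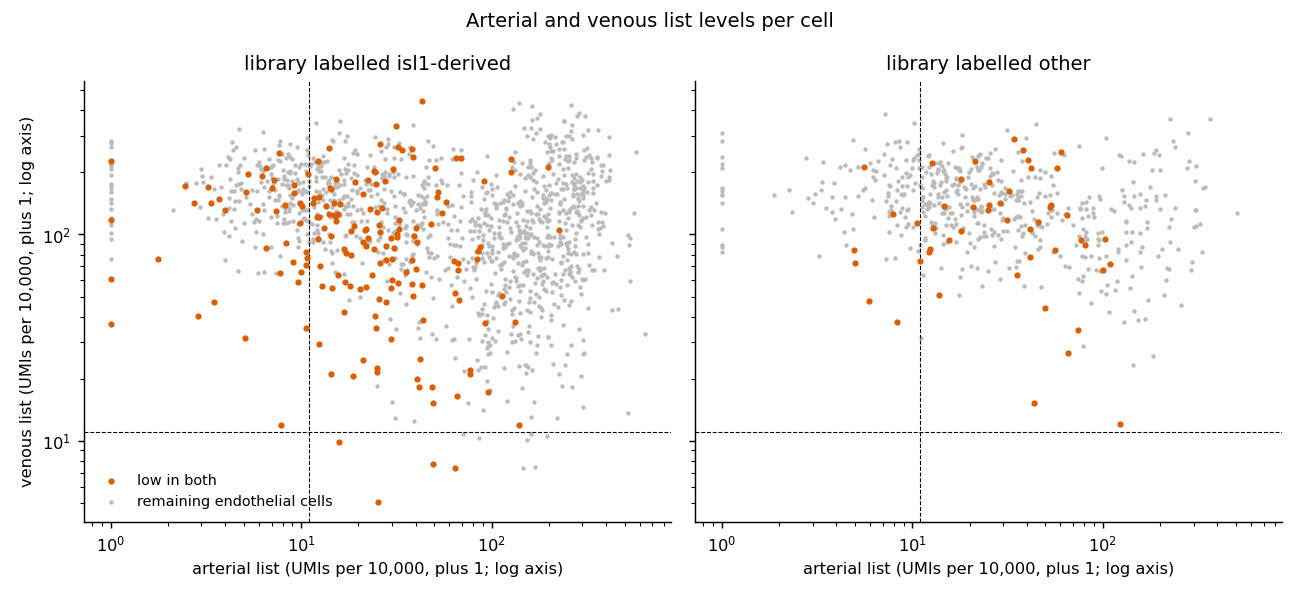
Summed arterial (x) and venous (y) list levels of each endothelial cell in UMIs per 10,000 plus 1, both on log axes, in the library labelled isl1-derived (left) and the library labelled other (right). Orange points are the marker-low cells, grey points the remaining endothelial cells, and dashed lines mark 10 per 10,000. Marker-low cells sit mostly right of and above both lines, with a median arterial level of 21.2 and 31.1 in the libraries labelled isl1-derived and other, and few reach the highest arterial levels.

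The given markers were carried by the marker-low cells in both libraries. Rnf220a, a RING-type ubiquitin ligase, had 181 CPM (161 to 203) in marker-low cells and 48.0 CPM in the remaining endothelial cells of the library labelled isl1-derived, a ratio of 3.77 (3.24 to 4.39). In the library labelled other it had 140 CPM (100 to 191) and 56.6 CPM, a ratio of 2.48 (1.72 to 3.49). Tm4sf18, a tetraspan membrane protein known in zebrafish to raise the VEGF response of sprouting endothelium, had 192 CPM and 87.4 CPM, a ratio of 2.19 (1.92 to 2.51), in the library labelled isl1-derived, with 204 CPM and 59.5 CPM, a ratio of 3.42 (2.52 to 4.58), in the one labelled other. Both genes were higher than in the stab2 side and in the aqp8a.1 or esm1 side of both libraries by at least 1.5-fold.

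Pcdh17, a protocadherin of cell adhesion, had 349 CPM against 204 CPM, a ratio of 1.71 (1.55 to 1.88), in the library labelled isl1-derived, with 477 CPM against 149 CPM, a ratio of 3.21 (2.64 to 3.88), in the one labelled other. The stab2 side held 126 and 122 CPM of it and the aqp8a.1 or esm1 side 261 and 215 CPM in the libraries labelled isl1-derived and other. Pcdh17 was thus nearest to the aqp8a.1 or esm1 side, and in the library labelled isl1-derived it was less than 1.5-fold above it. Dock9b, an exchange factor that activates the small GTPase Cdc42, had 73.7 CPM (61.0 to 88.3) in marker-low cells against 20.6 CPM in the remaining cells under the isl1-derived label, a ratio of 3.58 (2.82 to 4.54). Under the other label it had 52.6 CPM (29.5 to 86.8) against 19.0 CPM, a ratio of 2.78 (1.48 to 4.90).

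Myca, a Myc transcription factor, had the highest ratio of the 5 in both libraries. Its level was 110 CPM (94.3 to 127) against 20.7 CPM, a ratio of 5.32 (4.30 to 6.57), in the library labelled isl1-derived, with 45.6 CPM (24.3 to 78.0) against 10.7 CPM, a ratio of 4.27 (2.1 to 8.16), in the one labelled other. In the library labelled other it rested on 13 UMIs in 10 cells and dock9b on 15 UMIs in 9 cells. Both fell short of the 100 UMIs that a measured gene needs, so 3 of the 5 markers were measured. All 3 were at least 1.5-fold higher in both libraries, beside 3.39% of all measured genes. The markers were chosen with earlier results of these data known, so their ratios describe the cells and are no test.

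**Figure D2:**
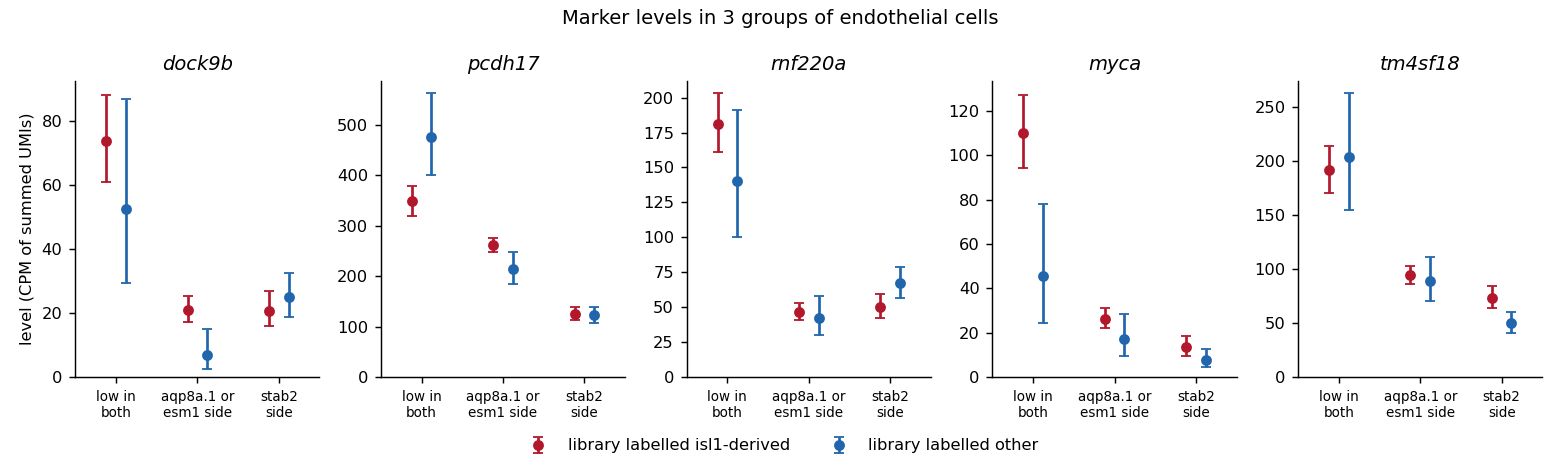
Levels of the 5 given markers (CPM of summed UMIs, linear axes from 0) in marker-low cells and in the 2 large groups of remaining endothelial cells. Red is the library labelled isl1-derived and blue the library labelled other; bars are exact 95% Poisson intervals for counting error. In each panel both libraries are highest in the marker-low cells, with overlapping intervals between the libraries for dock9b, rnf220a and tm4sf18.

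The markers were not carried by every marker-low cell. A UMI of rnf220a was found in 74 of 176 marker-low cells (42.0%) and 219 of 1129 remaining cells (19.4%) under the isl1-derived label, and in 16 of 49 (32.7%) and 121 of 524 (23.1%) under the other label. After each cell was thinned to 2000 UMIs the shares were 20.5% of marker-low, 6.22% of remaining and 6.33% of blood-lineage cells under the isl1-derived label, and 11.6%, 8.80% and 9.43% of these cells under the other label. Under the other label the share in marker-low cells was thus close to that of blood-lineage cells. Thinned shares of tm4sf18 were 23.5% of marker-low, 12.3% of remaining and 1.81% of blood-lineage cells under the isl1-derived label, and 25.6%, 8.40% and 0 of 53 cells (up to 6.72%) under the other label. Those of myca were 16.3% of marker-low, 2.79% of remaining and 4.16% of blood-lineage cells under the isl1-derived label, and 20.9%, 2.40% and 0 of 53 cells under the other label. Both genes were thus found in a larger share of marker-low cells than of either other group in each library. The blood-lineage cells, 553 under the isl1-derived label and 53 under the other label, were deeper, at medians of 25151 and 20641 UMIs, before thinning. All 5 markers were seen together in 14 of 176 marker-low cells and 7 of 1129 remaining cells under the isl1-derived label, and in 4 of 49 and 3 of 524 under the other label. None of the 5 was seen in 40 and 16 marker-low cells of these libraries, so at this depth the set marks a fraction of the cells that the rule selects.

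Genes of DNA synthesis and division were higher in the marker-low cells. All 11 measured genes of the G1/S list (of 22) and all 3 measured of the G2/M list (of 23) were at least 1.5-fold higher in both libraries, and 0 were lower. Of all 5008 measured genes 3.39% were higher and 7.75% lower. The G1/S median log2 ratio was 1.59 in the library labelled isl1-derived, with 1.57 in the one labelled other, and the G2/M medians were 1.59 and 1.56, where all measured genes had medians of -0.08 and -0.03. The cells were chosen on the same counts, so these numbers describe the selected cells and carry no test.

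Rrm2, the small subunit of ribonucleotide reductase that makes the building blocks of DNA, had 316 CPM in marker-low cells and 84.8 CPM in the remaining cells of the library labelled isl1-derived, a ratio of 3.73 (3.32 to 4.18), and 225 CPM and 29.6 CPM, a ratio of 7.58 (5.48 to 10.4), in the library labelled other. Under the other label 3 cells held 67.2% of the rrm2 UMIs. Pcna, the sliding clamp of DNA polymerase, was seen in more cells. It had 477 CPM and 157 CPM, a ratio of 3.03 (2.77 to 3.31), in the library labelled isl1-derived, with 439 CPM and 93.4 CPM, a ratio of 4.70 (3.80 to 5.78), in the one labelled other, with a UMI in 102 of 176 and 23 of 49 marker-low cells. Mki67, the chromosome coat protein of dividing cells, had ratios of 3.01 (2.47 to 3.66) under the isl1-derived label and 5.68 (3.71 to 8.55) under the other label. Its level in marker-low cells was 98.7 CPM under the isl1-derived label and 123 CPM under the other label, below the 185 and 204 CPM of blood-lineage cells.

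The replicative helicase subunits mcm2, mcm3, mcm4, mcm5, mcm6 and mcm7 had ratios between 2.58 and 3.75 in the library labelled isl1-derived, with between 2.21 and 3.17 in the one labelled other. Rrm1 (the large reductase subunit), dut (which clears dUTP), pclaf (a Pcna partner), chaf1a (histone loading behind the fork) and hist1h4l (a histone H4) completed the top of the ranking together with stmn1a and tuba1b, of the microtubules, and hmgb2a, a chromatin protein. Hmgb2a was broad, with 2443 CPM against 1108 CPM, from 3912 and 9965 UMIs, in the library labelled isl1-derived, and a UMI in 162 of 176 marker-low cells. Its ratios were 2.21 (2.13 to 2.29) under the isl1-derived label and 2.23 (2.06 to 2.42) under the other label, and it was the most even of the 12 leading genes between the libraries.

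Counted by cell, 89 of 176 marker-low cells in the library labelled isl1-derived (50.6%, 42.9 to 58.2) held at least 10 UMIs per 10,000 of the G1/S or G2/M list, against 205 of 1129 remaining cells (18.2%, 15.9 to 20.5). In the library labelled other these were 22 of 49 (44.9%, 30.7 to 59.8) and 97 of 524 (18.5%, 15.3 to 22.1). At 2000 UMIs per cell the shares were 56.0% of marker-low and 25.1% of remaining cells under the isl1-derived label, and 55.8% and 23.2% under the other label. Neither large group of remaining cells came near this, with thinned shares of 19.9% and 19.9% on the stab2 side and 27.5% and 25.2% on the aqp8a.1 or esm1 side in the libraries labelled isl1-derived and other. Blood-lineage cells reached 86.8% and 83.0%. The part of free RNA from these cells was not tested.

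Genes of the nucleolus, where ribosomes are assembled, were also higher. Of 22 measured genes of a list of Myc factors and nucleolar genes (of 33), 14 were at least 1.5-fold higher in both libraries and 0 lower. Over all measured genes these shares were 3.39% and 7.75%. The list had medians of 0.97 and 0.75 (log2) in the libraries labelled isl1-derived and other. Npm1a (nucleophosmin, a ribosome chaperone) had 372 CPM in marker-low cells and 144 CPM in the remaining cells, a ratio of 2.58 (2.33 to 2.84), in the library labelled isl1-derived, with 277 CPM and 148 CPM, a ratio of 1.87 (1.46 to 2.37), in the one labelled other. Dkc1, which modifies ribosomal RNA, had ratios of 2.74 (2.38 to 3.14) under the isl1-derived label and 1.96 (1.4 to 2.7) under the other label, and the nucleolar protein gene ncl had 1.97 (1.79 to 2.17) and 1.80 (1.44 to 2.22). These genes were thus higher than in the remaining cells in both libraries, by somewhat more under the isl1-derived label. Summed, the list had 3392 CPM in marker-low cells under the isl1-derived label. The stab2 side had 1616 CPM and the aqp8a.1 or esm1 side 1839 CPM there. Under the other label these sums were 2973, 1489 and 2478 CPM, so the aqp8a.1 or esm1 side of that library came nearer to the marker-low cells. Mycn, another Myc factor, had 63.7 CPM in marker-low cells and 30.2 CPM in the remaining cells under the isl1-derived label, a ratio of 2.11 (1.66 to 2.66), and 102 CPM and 44.3 CPM under the other label, a ratio of 2.30 (1.49 to 3.42). Mycb and mych did not reach the fold, with mycb at ratios of 1.14 and 1.34 and mych at 1.08 and 0.999 in the libraries labelled isl1-derived and other. Ribosomal protein genes themselves differed little, with 0 of 80 measured past 1.5-fold in both libraries and medians of 0.19 and 0.11.

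These groups were then read in cells below the cycling threshold, an alternative added after the data were seen. It left 87 and 27 marker-low cells and 924 and 427 remaining cells in the libraries labelled isl1-derived and other, and 4134 measured genes. Of these, 47 genes (1.14%) were higher and 213 (5.15%) lower in both libraries, and 34 of the 47 were also past the fold with all cells. Of the nucleolar list 12 of 19 measured genes were higher and 0 lower, with medians of 0.72 and 0.84. Among the clusters of marker-low cells described below, the summed list ran from 1685 CPM in cluster 8 to 4648 CPM in cluster 5. Cluster 5, led by spi2 among others, had 2 cycling cells of 28. Its part in the values without cycling cells was not tested. In the libraries labelled isl1-derived and other, npm1a had ratios of 2.64 (2.24 to 3.10) and 1.70 (1.17 to 2.40) and mycn 5.05 (3.80 to 6.67) and 3.51 (2.12 to 5.57). Of the given markers, rnf220a had 3.2 (2.51 to 4.06) and 2.34 (1.37 to 3.77) and tm4sf18 2.51 (2.02 to 3.09) and 2.91 (1.81 to 4.50). Pcdh17 was at 1.38 (1.15 to 1.65) under the isl1-derived label, short of the fold, and at 3.71 (2.84 to 4.78) under the other label. Of the 14 nucleolar genes past the fold with all cells, 10 were among these 12, and 2 of the given markers were past it too. Hmgb2a, at 1.36 (1.26 to 1.47) under the isl1-derived label and 2.68 (2.38 to 3.01) under the other label, was not.

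A mesodermal and a flow-induced transcription factor gene were among the higher genes. Meox1, a homeobox factor of the somites and of somite-derived endothelial precursors in zebrafish, had 122 CPM in marker-low cells and 52.9 CPM in the remaining cells of the library labelled isl1-derived, a ratio of 2.30 (1.94 to 2.73), and 130 CPM and 30.2 CPM, a ratio of 4.31 (2.89 to 6.29), in the library labelled other. It was at least 1.5-fold above both large groups in each library, and without cycling cells its ratios were 1.63 (1.21 to 2.17) under the isl1-derived label and 4.25 (2.47 to 6.96) under the other label. Of the mesodermal progenitor list it was 1 of 3 measured genes higher in both libraries, beside 3.39% of all measured genes. Klf2b, a Krüppel-like factor induced by blood flow, had 220 CPM in marker-low cells and 107 CPM in the remaining cells under the isl1-derived label, a ratio of 2.06 (1.82 to 2.33), and 298 CPM and 137 CPM under the other label, a ratio of 2.18 (1.71 to 2.75). Its paralogue klf2a was just short of the fold at 1.46 and 1.48 in the same libraries. Of 8 measured flow genes 1 was higher in both libraries, beside 3.39% of all measured genes.

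**Figure D3:**
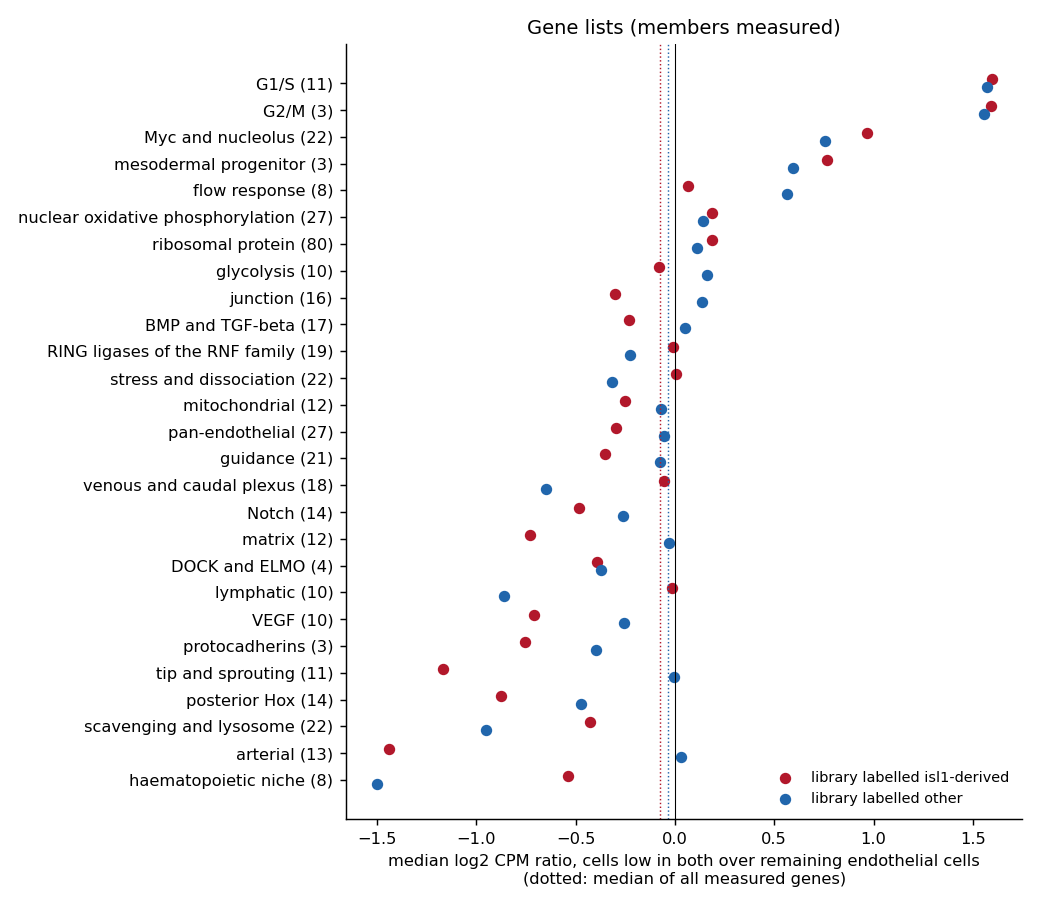
Median log2 CPM ratio of the measured genes of each list, marker-low cells over the remaining endothelial cells, with the number measured in brackets. Red is the library labelled isl1-derived, blue the library labelled other, and dotted lines are the medians of all measured genes. The G1/S, G2/M and nucleolar lists lie at 0.75 or above in both libraries, while the arterial list lies at -1.44 in the library labelled isl1-derived, with 0.03 in the one labelled other, where it ran from -1.20 to 0.36 over the settings tried.

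Some genes of venous scavenging were lower. Of 22 measured genes of scavenging and the lysosome 4 were at least 1.5-fold lower in both libraries and 0 higher (7.75% and 3.39% of all measured genes). Taken singly, 4 were lower under the isl1-derived label and 17 under the other label, beside 745 and 1100 of all 5008 measured genes. The medians were -0.43 under the isl1-derived label and -0.95 under the other label (log2). The median of -0.43 depends on the thresholds and was 0.16 at 20 per 10,000. Mrc1a, a mannose receptor, had 256 CPM in marker-low cells and 612 CPM in the remaining cells of the library labelled isl1-derived, a ratio of 0.419 (0.378 to 0.463), and 369 CPM and 1362 CPM, a ratio of 0.271 (0.221 to 0.328), in the library labelled other. Stab1, the stabilin beside stab2, had ratios of 0.441 (0.397 to 0.488) under the isl1-derived label and 0.295 (0.236 to 0.366) under the other label. Against the venous side itself the gap was wider, since the stab2 side held 1578 and 1971 CPM of mrc1a and 1315 and 1392 CPM of stab1 in the libraries labelled isl1-derived and other. The rule divides these groups by stab2, and the levels of these scavenger receptors were not independent of it. The aqp8a.1 or esm1 side held 70.7 and 165 CPM of mrc1a, so the summed marker-low cells stood between the 2 groups. Among the clusters of marker-low cells described below, mrc1a ran from 26.4 CPM in cluster 5 to 586 CPM in cluster 4.

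Dab2 and the green reporter stood between them too. Dab2 had 1106 CPM in marker-low cells of the library labelled isl1-derived, where the stab2 side had 3042 CPM and the aqp8a.1 or esm1 side 400 CPM. In the library labelled other it had 1365 CPM, with 3640 CPM on the stab2 side and 759 CPM on the aqp8a.1 or esm1 side. GFP had 1432 CPM in marker-low cells, 2579 CPM on the stab2 side and 578 CPM on the aqp8a.1 or esm1 side under the isl1-derived label, and 1446, 2441 and 859 CPM under the other label. The sort was on this reporter, so its presence was set by the gate. The summed venous list lay nearer the aqp8a.1 or esm1 side than the stab2 side in both libraries. Of its 18 measured genes 0 were higher and 3 lower in both libraries, beside 3.39% and 7.75% of all measured genes. Its summed level under the isl1-derived label was 10855 CPM in marker-low cells, 15853 CPM on the stab2 side and 11958 CPM on the aqp8a.1 or esm1 side. Under the other label these sums were 12660, 15424 and 12138 CPM. A pair of its genes were close to the stab2 side. Flt4, the VEGFC receptor, had 560 and 628 CPM in marker-low cells in the libraries labelled isl1-derived and other, 518 and 607 CPM on the stab2 side and 270 and 307 CPM on the aqp8a.1 or esm1 side. Nrp2a, a co-receptor of the same ligand, had 144 and 165 CPM, with 143 and 151 CPM on the stab2 side and 18.1 and 60.5 CPM on the aqp8a.1 or esm1 side. For both genes the intervals of the marker-low cells and the stab2 side overlapped in both libraries.

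Genes of the blood stem cell niche were mixed. Of 8 measured genes 4 were lower in both libraries (7.75% of all measured genes) and 1 higher (3.39%), with vcam1b, an adhesion receptor for blood cells, at 1.87 CPM in marker-low cells and 31.5 CPM in the remaining cells under the isl1-derived label, and at 21.1 CPM and 113 CPM under the other label. Kitlga, the ligand of the stem cell receptor Kit, had ratios of 0.483 (0.337 to 0.674) under the isl1-derived label and 0.590 (0.233 to 1.24) under the other label. The 1 higher gene was itga4, an integrin subunit that binds Vcam1, at ratios of 1.69 (1.35 to 2.1) under the isl1-derived label and 2.17 (1.17 to 3.77) under the other label.

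Arterial and sprouting genes gave different pictures in the 2 libraries. Of 13 measured arterial genes 5 were lower in both libraries and 0 higher, beside 7.75% and 3.39% of all measured genes. The rule limits aqp8a.1 and esm1, and these genes were not independent of it. The list's median under the other label, 0.03, was -1.20 without the 5 cells of that library in the spi2-led cluster described below and -0.73 at thresholds of 20 per 10,000. Aqp1a.1, a water channel of arteries, had 907 CPM in marker-low cells and 7620 CPM in the remaining cells, a ratio of 0.119 (0.113 to 0.125), in the library labelled isl1-derived, with 1481 CPM and 3668 CPM, a ratio of 0.404 (0.366 to 0.445), in the one labelled other. Cxcr4a, a chemokine receptor of tip cells, had ratios of 0.0775 (0.0478 to 0.119) under the isl1-derived label and 0.134 (0.0161 to 0.491), from 2 UMIs in marker-low cells, under the other label. The Notch ligand gene dll4 had 109 CPM and 249 CPM, a ratio of 0.436 (0.371 to 0.509), in the library labelled isl1-derived, with 235 CPM and 136 CPM, a ratio of 1.73 (1.32 to 2.24), in the one labelled other. The composition of the remaining cells also differed between the libraries, and its part in these ratios was not tested. Set beside each group on its own, dll4 at 109 and 235 CPM was above the stab2 side (46.1 and 61.6 CPM) and below the aqp8a.1 or esm1 side (375 and 342 CPM) in the libraries labelled isl1-derived and other. Apln, a peptide of sprouting tips, was placed alike, with 102 and 158 CPM in marker-low cells, 12.3 and 9.73 CPM on the stab2 side and 382 and 213 CPM on the aqp8a.1 or esm1 side. Flt1, the VEGF decoy receptor, had 165 and 228 CPM in marker-low cells, 74.0 and 71.8 CPM on the stab2 side, and 681 and 496 CPM on the aqp8a.1 or esm1 side of those libraries. Each of these 3 genes was intermediate in both libraries.

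Posterior Hox genes, which pattern the tail, were in part lower. Of 14 measured genes outside the rule 6 were lower in both libraries (7.75% of all measured genes), all of paralogue groups 10 to 13, and 0 were higher in both, while 3 were higher under the other label alone. Hoxc10a had ratios of 0.192 (0.113 to 0.306) under the isl1-derived label and 0.256 (0.0933 to 0.564) under the other label, and hoxc12b, with 1 UMI in the marker-low cells of each library, had ratios of 0.0240 (0.000605 to 0.135) under the isl1-derived label and 0.130 (0.00326 to 0.742) under the other label. The rule limits Hox13 transcripts, and these neighbours were not independent of it. Hoxb9a was at 0.868 in the library labelled isl1-derived, with 2.1 in the one labelled other.

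The remaining top lower genes were led by scn5lab, a sodium channel gene, with 4 UMIs in marker-low cells and 223 in the remaining cells of the library labelled isl1-derived, a ratio of 0.101 (0.0272 to 0.262). In the library labelled other it had 0 UMIs against 180, at least 4.56-fold lower when set at a floor of 3 UMIs over the group. Vox, a homeobox repressor, had 7 UMIs in marker-low cells against 465 in the remaining cells under the isl1-derived label, and 0 against 137, at least 3.47-fold lower, under the other label. Irx3b, an Iroquois factor, had 3 UMIs against 138 under the isl1-derived label, a ratio of 0.122 (0.0249 to 0.365), and 0 against 113, at least 2.86-fold lower, under the other label. All 3 genes were close to absent from the marker-low cells of both libraries. Over the stab2 side alone vox had ratios of 0.428 (0.158 to 0.999) under the isl1-derived label and 0 (0 to 1.72) under the other label. Over the aqp8a.1 or esm1 side alone irx3b had 0.327 (0.0639 to 1.05) and 0 (0 to 2.13) in the same libraries. Against those groups the intervals thus neared or passed 1. Vox and irx3b were still at least 1.5-fold below both large groups in both libraries by their ratios, while scn5lab was not. Slit3, a guidance ligand, was measured in many cells. It had 124 CPM in marker-low cells against 365 CPM in the remaining cells under the isl1-derived label, a ratio of 0.341 (0.294 to 0.393), and 161 CPM against 558 CPM under the other label, a ratio of 0.289 (0.211 to 0.387). It was below both large groups in each library. Kif26ba, ncam3, lrmda, adrb3a, pxk and icn made up the rest of the 12.

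Beyond either large group, 75 genes (1.5%) were at least 1.5-fold higher and 91 (1.82%) lower in marker-low cells than on the stab2 side and on the aqp8a.1 or esm1 side in both libraries. The G1/S list gave 8 of 11 and the G2/M list 3 of 3 of the higher ones, and the nucleolar list 2 of 22 (nop2 and nhp2). Outside these lists was clic2, a chloride channel protein, at ratios of 2.04 over the stab2 side and 2.07 over the aqp8a.1 or esm1 side under the isl1-derived label, and 2.69 and 3.79 under the other label. Odc1, the first enzyme of polyamine synthesis, was at 1.82 over the stab2 side and 1.72 over the aqp8a.1 or esm1 side under the isl1-derived label, and at 2.13 and 2.48 under the other label. Among the lower ones was yap1, a growth regulator of the Hippo pathway, at 0.475 over the stab2 side and 0.502 over the aqp8a.1 or esm1 side under the isl1-derived label, and at 0.529 and 0.559 under the other label. These 3 were named after their values were seen.

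The marker-low cells were not one kind. Clustering them alone at resolution 1.0 gave 8 clusters of 11 to 48 cells, each described by its leading genes and left unnamed. The cells' own counts made the clusters, so the genes below describe them and are no test. Cluster 1 (30 cells under the isl1-derived label and 18 under the other label, the order kept for the clusters that follow) was led by adamts9, a matrix protease, ror1, a Wnt receptor, and tshz2. It held 1089 CPM of pcdh17, with 241 CPM in the other marker-low cells, 1234 CPM of flt4 and 392 CPM of tm4sf18. Cluster 2 (30 and 8 cells) was led by lcp1, an actin bundler, and fgfr1b, and its leading genes included cdc20, cenpf and kif11, of mitosis. Cluster 7 (18 and 2 cells) was led by the cell cycle genes gtse1, e2f8 and racgap1. Cluster 7 held 1656 CPM of rrm2, and all 20 of its cells passed the cycling threshold. Clusters 2 and 7 also held 157 and 136 CPM of myca, and 432 and 631 CPM of pcdh17.

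Where the given markers were weak, other genes led. Cluster 5 (23 and 5 cells) had 28 of 28 cells with cdh5 but 0 dock9b UMIs, 13.2 CPM of myca and 2 cycling cells (7.14%). It was led by notch3, a Notch receptor, with 106 CPM and 0 in the other marker-low cells, and by tnr, fbln2 and scube3, of the extracellular space. It held 4472 CPM of icn, with 104 CPM elsewhere, and 1346 CPM of the RNA-binding regulator gene nanos1, with 31.4 CPM elsewhere. Gja5a, an arterial connexin, had a UMI in 12 of its 28 cells, gata2b, a factor of blood-forming endothelium, in 12, and runx1, its partner, in 6. Spi2, which had a UMI in 93.9% of blood-lineage cells under the isl1-derived label and 96.2% under the other label, had 959 CPM here and 18.7 CPM in the other marker-low cells. The rule removes cells at 3 UMIs of myb, runx1 and gata2b together. Of the 28 cells 12 had 2 of these UMIs, 3 had 1 and 13 had 0, where 3 of the other 197 marker-low cells had 2. They held the lowest dab2 (475 CPM) and GFP (598 CPM) levels of the 8 clusters, and all 28 stayed together at resolutions 0.5 and 2.0. At resolution 2.0 the largest shared groups of clusters 1, 2 and 4 were 18 of 48, 15 of 38 and 16 of 28 cells, so those clusters were less stable. Both marker-low cells with isl1 UMIs, 1 in each library, were in cluster 5.

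Cluster 3 (26 and 2 cells) was led by lyve1a, a hyaluronan receptor, and the others of its leading genes included eya1 and eya2, cdh6, lef1 and prox1a, the last the master factor of lymphatic fate. Lyve1a had 1674 CPM there, in 8 of 28 cells, with 14.9 CPM in the other marker-low cells, and prox1a 313 CPM, in 9 of 28, with 23.8 CPM elsewhere. Cluster 4 (24 and 4 cells) was led by pfkfb3, cebpb and jdp2b, the last 2 leucine-zipper factors. Its other leading genes included ddit3 and gadd45bb. Clusters 6 (15 and 9 cells) and 8 (10 and 1 cells) were led by genes of the lysosome and metabolism, including fuca1.1, gnpda1, cndp2 and sqstm1, and held the highest GFP levels (2453 and 2575 CPM). Cycling cells made up 45.8%, 68.4%, 57.1%, 35.7%, 62.5% and 0% of clusters 1, 2, 3, 4, 6 and 8. High cycling was therefore spread over several clusters. Other resolutions gave 5 and 14 clusters.

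**Figure D4:**
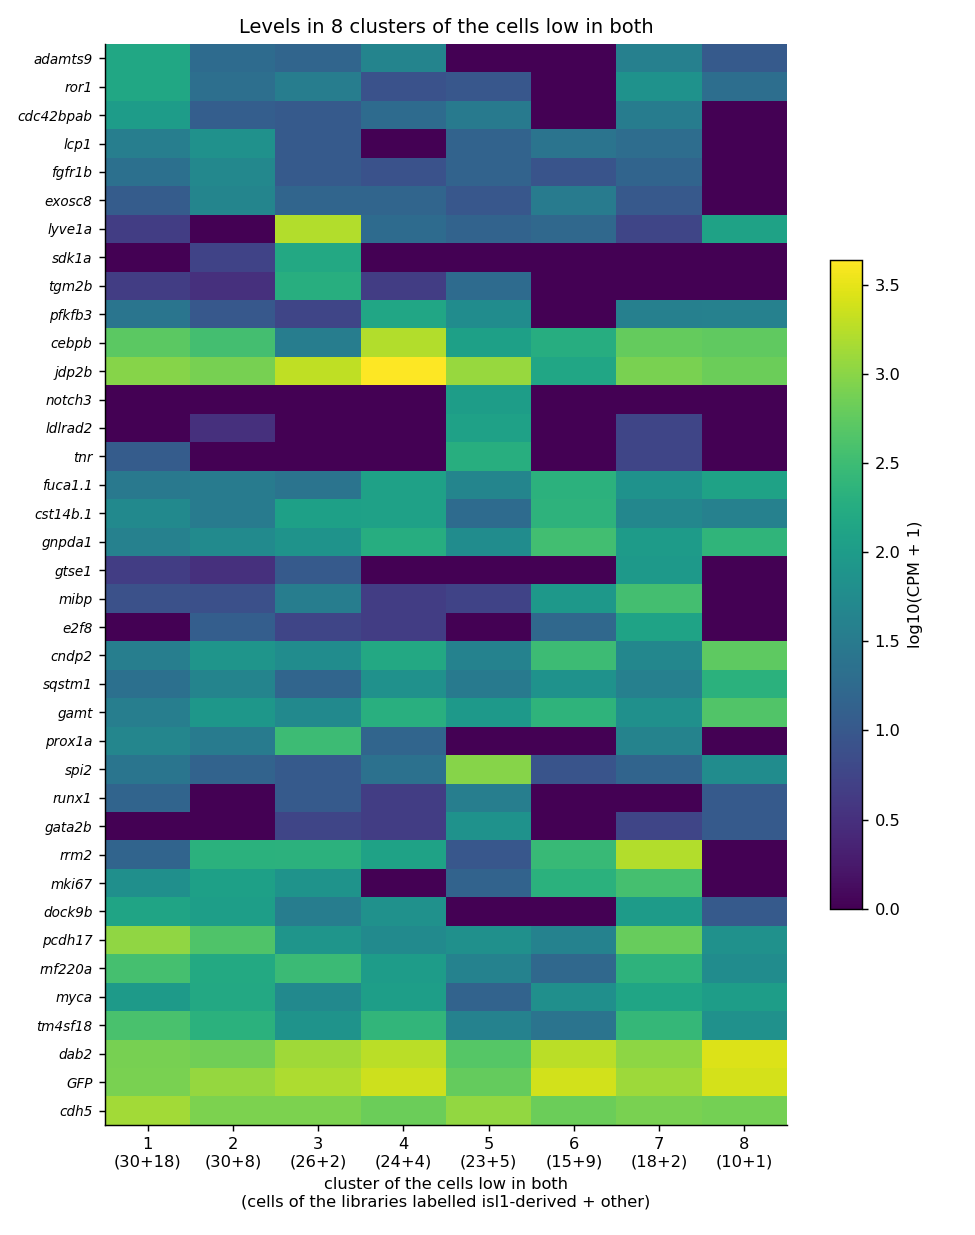
Levels of leading and key genes, log10 of CPM plus 1 as colour, in the 8 clusters of marker-low cells, with the number of cells from each library under it. Notch3, tnr and spi2 are bright in cluster 5, lyve1a and prox1a in cluster 3, and rrm2 and mki67 in cluster 7, while dock9b is at 0 in clusters 5 and 6.

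The marker sums of most other cell types were lower in the marker-low cells. Summed erythroid genes had 199 CPM in marker-low cells and 213 CPM in the remaining cells of the library labelled isl1-derived, with 49.1 CPM and 114 CPM in the one labelled other, and 3 and 12 of 15 genes were at 0 in the marker-low cells of these libraries. Myeloid genes had 461 CPM in marker-low against 653 CPM in remaining cells under the isl1-derived label, and 449 CPM against 533 CPM under the other label, with 9 and 11 of 14 at 0. Neural genes had 474 CPM in marker-low against 445 CPM in remaining cells under the isl1-derived label, and 600 CPM against 409 CPM under the other label, with 9 of 20 at 0 in each, and 1 marker-low cell of the library labelled other reached 50 per 10,000. Of these 3 sums only the neural one was higher in the marker-low cells. Of all 26749 genes outside the rule, 9980 under the isl1-derived label and 14141 under the other label were at 0 in marker-low cells. In the remaining cells, with more summed UMIs, 0 and 2 erythroid, 3 and 4 myeloid, and 5 and 1 neural genes were at 0. The counts at 0 thus depend on the summed UMIs and do not show that a cell type is absent. Fibroblast and mural genes had 607 CPM in marker-low against 1132 CPM in remaining cells under the isl1-derived label, and 934 CPM against 1916 CPM under the other label. Muscle genes were at 87.4 CPM in marker-low against 108 CPM in remaining cells under the isl1-derived label, and 116 CPM against 219 CPM under the other label. Epidermal genes were at 2638 CPM in marker-low against 3543 CPM in remaining cells under the isl1-derived label, and 3022 CPM against 3424 CPM under the other label. All 3 sums were lower in the marker-low cells. The blood progenitor sum was 769 CPM in marker-low against 662 CPM in remaining cells under the isl1-derived label, and 776 CPM against 715 CPM under the other label. The neural and blood progenitor sums were thus above the remaining cells in both libraries, and their part in other results was not tested.

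Between the libraries, within the marker-low cells, 195 of 2597 measured genes (7.51%) were at least 1.5-fold higher and 219 (8.43%) at least 1.5-fold lower in the library labelled isl1-derived than in the library labelled other. With TMM scaling, which shifted all ratios by 0.17 (log2), the counts were 345 higher and 108 lower, so 47.1% of the past-fold genes were higher without it and 76.2% with it. Several leading genes rested on a few cells. Lyve1a had 372 UMIs in 18 cells and 1 UMI in 1 cell in the libraries labelled isl1-derived and other, a ratio of 66.2 (11.8 to 2622), and 3 cells held 72.0% of those of the library labelled isl1-derived. Prox1a had 102 UMIs under the isl1-derived label and 3 under the other label, a ratio of 6.05 (2.01 to 29.8). In the remaining endothelial cells the ratio was 1.44 (1.25 to 1.65) for lyve1a and 0.989 (0.604 to 1.67) for prox1a.

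Cxcl12a, a chemokine that guides blood and endothelial cells, was spread over more cells. It had 476 CPM in 110 of 176 cells of the library labelled isl1-derived, with 109 CPM in 17 of 49 cells of the one labelled other, a ratio of 4.37 (3.06 to 6.48), against 1.1 (1.03 to 1.17) in the remaining cells. Rbm24a, an RNA-binding protein gene, had 102 UMIs in 55 cells under the isl1-derived label and 1 UMI in 1 cell under the other label, a ratio of 18.2 (3.19 to 724). In the remaining cells its ratio ran the opposite way, at 0.643 (0.555 to 0.746). Lyz, a lysozyme gene of myeloid cells, had 114 UMIs under the isl1-derived label and 1 UMI under the other label in marker-low cells, a ratio of 20.3 (3.57 to 808), and a ratio of 23.0 (13.1 to 44.7) in the remaining cells, so it differed alike in both groups of cells. Rgs5b, a G-protein regulator, had a ratio of 8.33 (3.52 to 25.9) in the marker-low and 4.66 (3.81 to 5.74) in the remaining cells, with 3 cells holding 59.8% of its UMIs in marker-low cells of the library labelled isl1-derived. Prdx1, an antioxidant enzyme, and dpp7, a lysosomal protease, closed the 8 higher genes.

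In the other direction hmox1a, a haem-degrading enzyme, had 25.6 CPM and 344 CPM in marker-low cells in the libraries labelled isl1-derived and other, a ratio of 0.0744 (0.0504 to 0.108), and 3 cells held 82.7% of the UMIs of the library labelled other. Spi2 had 94.9 CPM and 340 CPM, a ratio of 0.279 (0.215 to 0.364), where 3 cells held all 97 UMIs of the library labelled other. Nectin1b, an adhesion protein gene, was in 85 and 28 cells at 179 CPM and 435 CPM, a ratio of 0.410 (0.331 to 0.511), against 0.883 (0.811 to 0.961) in the remaining cells. Robo1, a receptor for Slit ligands, had a ratio of 0.412 (0.291 to 0.590) in the marker-low cells, against 0.778 (0.716 to 0.847) in the remaining cells. Ap1s3b, cavin1b and kif13ba were also among the leading lower genes. For nectin1b and robo1 the interval of the ratio in the marker-low cells lay apart from that in the remaining cells, but under the other label robo1 had 48 UMIs in 13 marker-low cells, with 54.2% of them in 3 cells. With 1 library a label, the sort and all else that differed between the preparations cannot be told apart.

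**Figure D5:**
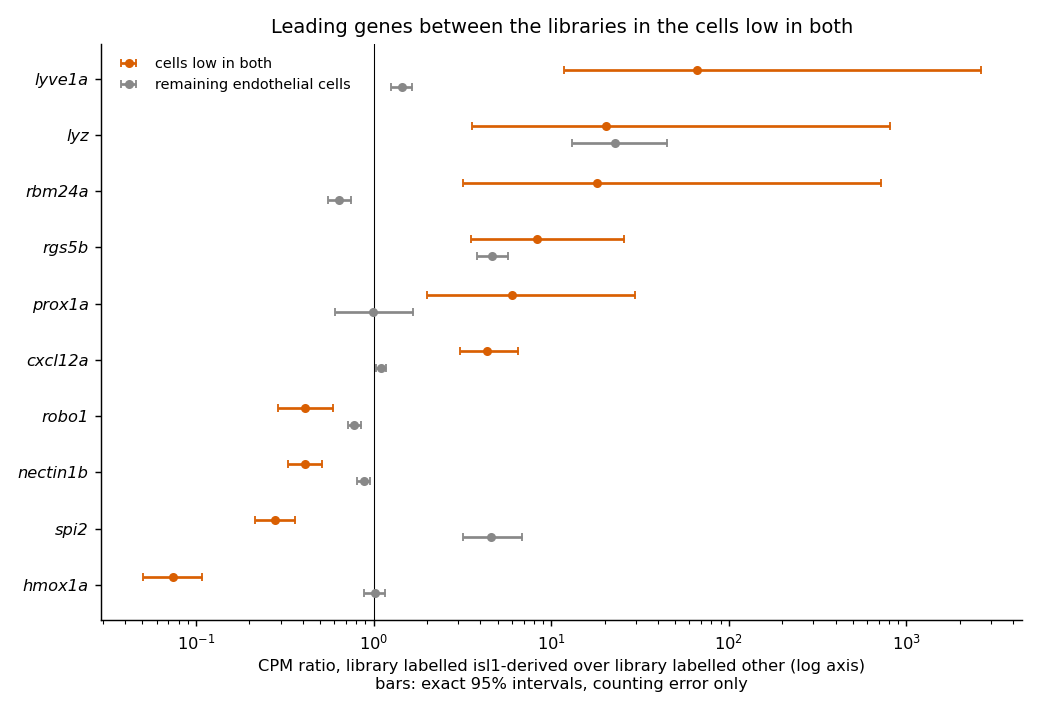
CPM ratio between the libraries, that labelled isl1-derived over that labelled other, on a log axis, for the leading genes whose values are given in the text. Orange is the marker-low cells, grey the remaining endothelial cells, and bars are exact 95% intervals for counting error. Lyve1a, lyz and rbm24a have intervals that run past 100 because 1 UMI was counted in the library labelled other.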

How the data were processed

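The authors deposited whole-number UMI counts, 1 value for each gene in each barcode, made with Cell Ranger (10x Chromium v3.1 chemistry, per the labels), version 5.0.0 in the submitters' processing notes and 5.0.1 in the matrix headers, on GRCz11. No normalization had been applied. Features sharing a symbol (1174 of 27421) were summed, which left 26764 symbols. Kept barcodes had 500 or more genes and less than 10% of UMIs from mitochondrial genes. This left out 42 barcodes in the library labelled isl1-derived and 21 in the library labelled other.

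Cells were assigned by the rule given in the text, groups came from the sample labels, and UMIs were summed per library and cell group. CPM has exact Poisson intervals, CPM ratios have exact conditional binomial intervals, and shares have Clopper-Pearson intervals, all at 95%, computed with scipy 1.17.1. A measured gene had 100 or more UMIs over the 2 sums compared in each library (between the libraries, over the 2 sums of marker-low cells), and past the fold at a ratio of 1.5 or its inverse, in both libraries where both are compared. Log2 ratios used 0.5 added UMIs. The interval and ratio code was tested on simulated data. The 15 genes of the rule were left out of counts and lists. No test was run, since each label has 1 library and the cells were chosen on these counts.

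Marker-low cells were clustered with scanpy 1.11.5 (2000 variable genes, 30 components, 15 neighbours, leidenalg 0.10.2). A cluster's leading genes had at least 20 UMIs and a UMI in 25% of its cells. Doublets were not removed in the main analysis. TMM factors came from edgeR 4.0.16. Named were the rule's genes, the given markers, the sort genes, the 12 leading genes of each direction by the interval bound nearest 1 (8 between the libraries, without clone names, mitochondrial and ribosomal protein genes), list members of highest level or ratio, and leading cluster genes; some were left out for length, and 1 gene that the rule names is not reported here. The cells, markers and lists were chosen with earlier results of these data known. No coordinates or sequences are given.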

Additional observations from a re-analysis of the deposited data

Results flagged for a closer look

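A few genes ran in opposite directions in the 2 libraries, marker-low cells over remaining endothelial cells, each past the fold in both. The difference between the libraries was not tested.

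TagRFP had a ratio of 0.208 (0.0246 to 0.789) in the library labelled isl1-derived, from 2 UMIs, and 5.59 (3.63 to 8.45) in the library labelled other, from 34. Hmox1a had 0.329 (0.234 to 0.451) and 4.47 (3.52 to 5.65) in the libraries labelled isl1-derived and other. Lyve1a ran the other way, at 2.26 (2.0 to 2.55) and 0.0491 (0.00124 to 0.276), the second from 1 UMI. On the higher side 3 cells held 88.2% of the TagRFP UMIs, 82.7% of those of hmox1a and 72.0% of those of lyve1a.

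Of the sprouting genes, apln had ratios of 0.444 (0.376 to 0.521) and 2.69 (1.91 to 3.72), dll4 0.436 (0.371 to 0.509) and 1.73 (1.32 to 2.24), and kif26ab, a kinesin gene, 0.475 (0.404 to 0.556) and 1.81 (1.3 to 2.47) in the libraries labelled isl1-derived and other. The aqp8a.1 or esm1 side, where apln and dll4 are highest, was 49.7% of endothelial cells in the library labelled isl1-derived and 22.0% in the library labelled other, and its part was not tested. Eno1a, a glycolytic enolase, had 0.603 (0.405 to 0.871) and 2.71 (1.01 to 6.20), the second from 7 UMIs in marker-low cells.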

How the results depend on the processing

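No paired analysis was possible because each label has 1 library. Over 16 settings no marker ratio crossed 1, and 19 of 189 list medians changed sign. Of these, 18 had main medians within 0.2 (log2) of 0, and the other was the scavenging median under the isl1-derived label, at 0.16 with thresholds of 20 per 10,000 against -0.43. The arterial median under the other label ran from -1.20, without the spi2-led cluster, to 0.36. Of 56 gene counts 37 stayed within 1.5 times, of 189 list medians 154 stayed within 0.2, and of 150 marker ratios 137 and of 14 shares 9 stayed within their range, and the cause of the others was not tested beyond what the settings construct.

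The thresholds set the size of the group. At 5 per 10,000 the marker-low share was 8.43% in the library labelled isl1-derived and 5.06% in the library labelled other, and at 20 it was 24.4% and 18.7%. With an endothelial minimum of 20 it was 11.4% and 7.21%. At 20, 89 genes were higher and 220 lower than in the remaining cells in both libraries, where the main counts were 170 and 388. Both settings had 5008 measured genes. The count of genes followed depth and the UMI minimum, as did the number of genes measured. A minimum of 30 UMIs gave 448 higher and 757 lower of 9058 measured genes, and one of 300 gave 65 and 135 of 2006. Thinning to 2000 UMIs gave 50 and 149 of 1630. Leaving out cycling cells, an alternative chosen after seeing the data, gave 47 and 213 of 4134.

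Between the libraries a minimum of 30 UMIs gave 955 genes higher and 865 lower of 6344 measured. One of 300 gave 30 and 37 of 807, and thinning to 2000 UMIs gave 32 and 33 of 537. Of 2597 measured genes, TMM scaling gave 345 and 108, and weighting each cell equally gave 295 higher and 278 lower. Over all settings rnf220a kept ratios of 3.07 to 4.30 and 1.86 to 2.91 in the libraries labelled isl1-derived and other, tm4sf18 2.14 to 2.61 and 2.65 to 3.80, and myca 4.28 to 7.08 and 3.32 to 7.27. Pcdh17 ranged from 1.36 to 1.97 and from 1.95 to 3.92, and dock9b from 2.86 to 4.34 and from 1.73 to 3.36. The nucleolar median stayed between 0.72 and 1.05 and between 0.54 and 0.93. Without cycling cells the G1/S value was 0.09 in the library labelled isl1-derived and 1.71 in the one labelled other. It rested there on 1 measured gene. Those cells were removed by the G1/S and G2/M lists themselves, so this setting limits the value by construction. Scrublet called 15 and 1 barcodes, and leaving them out gave 171 genes higher and 381 lower than in the remaining cells, of 5008 measured. The 49 marker-low cells of the library labelled other limit every value there.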
